A study of Mus musculus with 16 samples.

Results

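The genes described here are the splicing factors and RNA helicases of the mouse, read in RNA that was immunoprecipitated with THOC5. They were chosen by symbol, with earlier results of these data known, so their shares beside those of all genes are descriptions. Taken were the Ddx and Dhx helicases and the Rbm, Srsf, Sf3b, Prpf and Hnrnp genes with their numbers or letters. Acin1, Son, Srrm1, Srrm2, Nktr, Snrnp200 and Helz were added by name, and Ddx39b was left out. The rule found 156 of the 49997 genes of the RefSeq table, of which 148 are protein-coding, 6 are pseudogenes and 2 are long noncoding RNAs. Of the 156 genes, 67 had at least 1 THOC5 peak and 89 had none, while 4051 genes of all kinds had a peak. Bound means that at least 1 peak of a list was placed by the deposited annotation inside the gene, in an exon, intron, UTR or transcript end.

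THOC5 belongs to the THO complex, which with its partners joins transcription and splicing to the export of mRNA from the nucleus. Splicing removes the introns of a new transcript: SR proteins and hnRNPs mark exons and introns, the small nuclear ribonucleoproteins and their Prpf and Sf3b proteins form the spliceosome, and DEAD-box (Ddx) and DEAH-box (Dhx) helicases drive its rearrangements. Other helicases of the same families act in ribosome assembly, mRNA decay or the sensing of viral RNA. Many SR and hnRNP genes are themselves controlled through the splicing of their own transcripts.

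The RNA came from primary mouse vascular smooth muscle cells, which form the muscle layer of the artery wall and can take on bone-like features in high phosphate. Each of 4 conditions gave 2 immunoprecipitates, and each immunoprecipitate gave 1 deposited list of peaks. Ctrl was wild-type cells in growth medium, and Pi was wild-type cells in osteogenic medium. GFP OE was cells overexpressing green fluorescent protein, labelled wild type, and THOC5 OE was cells overexpressing THOC5, both in osteogenic medium. The labels name no strain, age, vector or time of treatment, and nothing says that replicates were separate cultures, so every p below measures only the spread between these samples. The 8 inputs were not analysed here, so a peak is not corrected for the level of its transcript, and a gene without a peak may be unbound, lowly expressed or below the reach of the list. The number of reads behind a list is unknown.

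The lists held 2572 to 4795 peaks of a single width each, 415 to 553 bp, in 1231 to 2093 genes. Of 8 smooth muscle markers, 5 carried a peak (Mylk in 8 lists, Acta2 in 3, Smtn in 2, Lmod1 and Tagln in 1) and Myh11, Cnn1 and Des had none. No peak lay in the 6 endothelial or 5 leukocyte markers, and 1 of 4 fibroblast markers, Pdgfra, had a peak in 1 list. Each peak has a score from the authors' caller, on a scale that the sources used here do not state, so a peak's strength is given only as its percentile within its own list. A percentile of 98 means that about 98% of the peaks of that list scored at or below that peak, with tied scores given their mean rank. Where a gene had several peaks in a list, its percentile is that of the strongest, which need not lie at the place shared with other lists.

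Among the strongest peaks inside these genes were ones that the annotation named for a microRNA beside them, so the mature microRNAs are shown first, with the seed (bases 2 to 8) in capitals. Mir6948 lies inside Acin1 on chromosome 14 and Mir6932 inside Helz on chromosome 11 (RefSeq, GRCm38.p6). The 4 seeds differ.
mmu-miR-6948-5p: aGUUCAGAcaggacugugacac
mmu-miR-6948-3p: uGUCCUUCcugucugaccaca
mmu-miR-6932-5p: uUGUAGGUgaaguagacuuggc
mmu-miR-6932-3p: uCUGUUCUgcuuccucugcag
The peak at Mir6948, chr14:54642377-54642926, was present in both Ctrl, both GFP OE and both THOC5 OE lists at percentiles 98.5 to 99.6 and in neither Pi list. The peak at Mir6932, chr11:107637808-107638346, was present in 4 lists at percentiles 0.519 to 54. Neither reached its hairpin: the peaks ended 123 to 243 bp from Mir6948 and 29 to 97 bp from Mir6932. Both lie within the transcribed span of the host gene, and the lists carry no strand, so the RNA of the host and of the microRNA precursor cannot be told apart.

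At 2 genes a peak that the annotation counted to the gene covered 1 annotated start of transcription in 3 lists. The 30 bases around that start are shown, with the bases from the start on in capitals (RefSeq, GRCm38.p6, minus strand for both). The RefSeq spans reach further upstream, to chr9:53248170 for Ddx10 and chr14:105181039 for Rbm26, so the bases in lower case also lie inside the genes. For Ddx10, a helicase of ribosome assembly, the start lies within chr9:53248098-53248127 and was covered in Ctrl replicate 2, GFP OE replicate 2 and THOC5 OE replicate 2. That of Rbm26 lies within chr14:105177300-105177329 and was covered in Ctrl replicate 2, Pi replicate 2 and GFP OE replicate 1.
Ddx10: ttcccggacttgcgcGTGCGCCCCTGCGCC
Rbm26: gcactcattctcgcgAGATTTACCGGCAGC

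Among protein-coding genes, 67 of the 148 splicing factors and RNA helicases were bound in at least 1 list, or 45.3%, where 18% of all 21900 protein-coding genes were. The members were slightly longer than other genes, with a median genomic span of 20810 bp against 17150 bp, so the shares were set side by side by span. Under 10 kb, 3 of 34 were bound (8.82% against 3.4% of all protein-coding genes of that span). From 10 to 30 kb the share was 33.9% against 15.8%, from 30 to 100 kb 82.2% against 32.6%, and from 100 kb up 85.7% against 41.1%. The bound share was higher than that of all genes in each of the 4 classes of span. Since the members were chosen with earlier results known, this is a description of the chosen genes. Transcript level was not measured in these files, and its part in this difference was not tested.

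**Figure D1:**
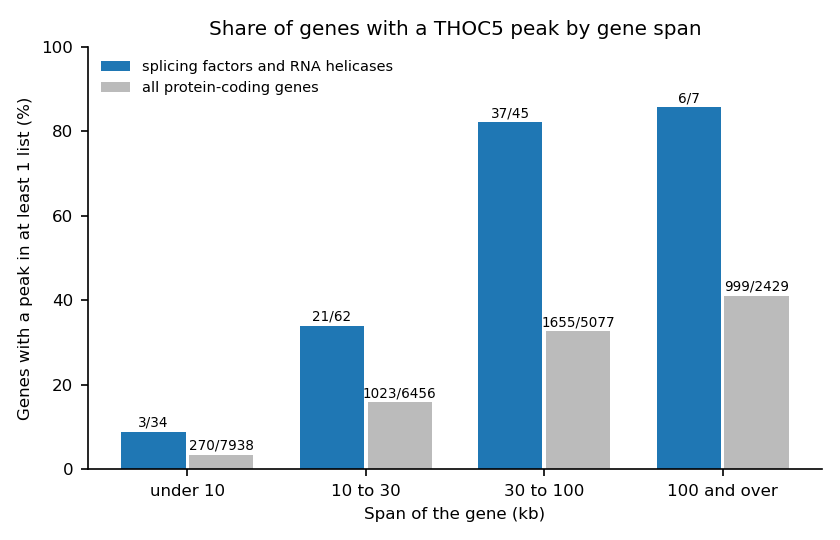
Share of protein-coding genes with a THOC5 peak in at least 1 list (y axis, %) by genomic span (x axis, kb), for splicing factors and RNA helicases (blue) and all protein-coding genes (grey), with the counts above each bar. The blue bar is above the grey one in every class, and both rise with span, from 8.82% and 3.4% under 10 kb to 85.7% and 41.1% from 100 kb up.

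Once bound, these genes were found in about as many lists as bound genes at large. Of the 67, 7 were bound in all 8 lists (10.4%, where 9.87% of all 4051 bound genes were), and 23 were bound in 1 list (34.3% against 37.2%). The median was 3 lists against 2. The 7 genes bound in every list were Acin1, Rbm26, Rbm28, Rbm33, Prpf4b, Sf3b1 and Helz.

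Their peaks stood high in the lists. The median percentile of the 352 peaks in these genes was 63.7, against 50.6 for all peaks in genes, and 20.2% of them were at the 90th percentile or above, against 10.1%. These shares count peaks and not genes, and Rbm26 held 26 of the 352, Helz, Rbm33 and Ddx60 25 each, and Sf3b1 17.

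The number of bound splicing factors and helicases was 31 and 36 for the Ctrl lists, 25 and 32 for Pi, 22 and 18 for GFP OE and 28 and 28 for THOC5 OE. The mean was 33.5 ± 3.54 for Ctrl, 28.5 ± 4.95 for Pi, 20 ± 2.83 for GFP OE and 28 ± 0 for THOC5 OE (SD, n = 2 lists each). Both GFP OE lists lie below the other 6 lists. The mean number of all bound genes was also lowest in GFP OE (1327 ± 136, SD, n = 2 lists). Single lists overlapped in that number, with 1423 in GFP OE replicate 1 and 1280 in Ctrl replicate 1. The members made up 1.46% to 2.42% of the bound genes of a list, with the highest share in Ctrl replicate 1 and the lowest in GFP OE replicate 2. With 2 lists a condition, an exact permutation test of 1 condition against another cannot go below a two-sided p of 1/3, so none was run on these counts. Present in both lists of their condition were 25 of these genes for Ctrl, 13 for Pi, 11 for GFP OE and 20 for THOC5 OE. The same counts over all bound genes are not given here, so these differences are not read as particular to the members.

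**Figure D2:**
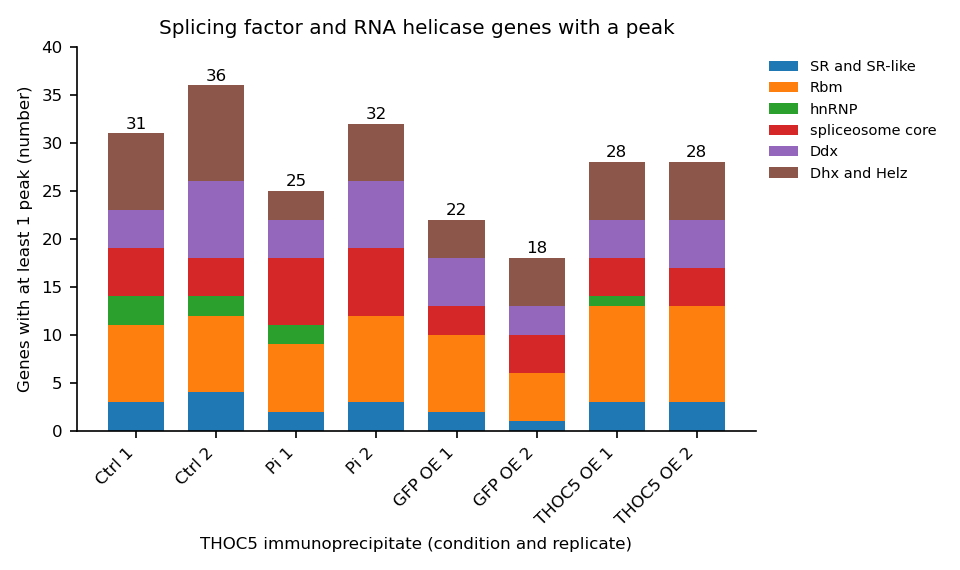
Number of splicing factor and RNA helicase genes with at least 1 peak (y axis) in each of the 8 THOC5 immunoprecipitates (x axis), stacked by family. Totals run from 18 in GFP OE replicate 2 to 36 in Ctrl replicate 2, and both GFP OE lists are the lowest.

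Of the 17 SR and SR-like genes, the pseudogene Srsf3-ps among them, 5 were bound: Acin1, Srrm1, Son, Nktr and Srsf4. SR proteins carry runs of arginine and serine and recruit the spliceosome to exons. Srsf4 was the only Srsf gene with a counted peak, and Srrm2, Srsf1 and Srsf10 were among the 12 genes without one. Acin1, an SR-like partner of the exon junction complex, was bound in every list, at percentiles 96.7 and 97.9 for Ctrl, 96.8 and 97.5 for Pi, 97.8 and 98.3 for GFP OE and 98.3 and 98.6 for THOC5 OE. The values of the 8 lists overlap and all lie in the top 4% of their list. The peak was in exon 6 of 19, chr14:54664566-54665407, the same place in all 8 lists. A further place at the far 5' end of Acin1, chr14:54686101-54686654, was present in all 8 lists (percentiles 63.1 to 82) under the name of the overlapping transcript 1700123O20Rik.

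Srrm1, a coactivator that bridges SR proteins and the spliceosome, was bound in 6 lists: at percentiles 87.1 and 94.4 in Ctrl, 61.8 in Pi replicate 2, 94.2 in GFP OE replicate 1, and 93.3 and 92.3 in THOC5 OE. Its shared place was the 3' UTR in exon 18 of 18, chr4:135320739-135321277, in 5 of the 6 lists. The Pi peak was elsewhere, in intron 10 of 17. Nktr, a cyclophilin with an arginine-serine domain, was bound in the Ctrl lists only, at percentiles 92.1 and 93.8, both in intron 9 of 16. Son, a scaffold of nuclear speckles, had a peak in intron 1 of 11 in Ctrl replicate 2 (89.2) and both Pi lists (82.3 and 83.9). Its one other peak, in GFP OE replicate 1 at percentile 98.4, lay within the gene but was named for the end of the neighbour Donson. Srsf4 was bound in both THOC5 OE lists, at percentiles 77.1 and 82.9, in its last exon at chr4:131900681-131901219. A peak of Pi replicate 2 (82.3) starting at 131900993 overlaps that place, but the annotation named it for the noncoding gene Gm12992.

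Of the 44 Rbm genes, most of which encode RNA-binding motif proteins of many functions, 15 were bound with 119 peaks. Rbm11, Rbm12 and Rbm12b2 were among the 29 without one. So were the pseudogenes Rbm3-ps, Rbm6-ps1, Rbm6-ps2 and Rbm8a2 and the long noncoding RNAs Rbm3os and Rbm46os. Rbm26, a nuclear zinc finger protein linked to RNA turnover, was bound in every list, at percentiles 94.9 and 96.4 for Ctrl, 93.6 and 97 for Pi, 96.7 and 95.8 for GFP OE and 97.7 and 97.9 for THOC5 OE. Its leading place was intron 7 of 21, chr14:105150847-105151400, in all 8 lists with peak centres within 26 bp. Introns 2 to 3 and exon 1 with its 5' UTR each held a place in 6 lists, all 4 vector lists among them (the lists of GFP OE and THOC5 OE). In exon 1 that place, chr14:105176536-105177416, takes in the annotated start shown above.

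Rbm33, which takes part in mRNA export and in the removal of m6A marks, was bound in every list, at percentiles 68.2 and 86.8 for Ctrl, 76.5 and 84.1 for Pi, 87.5 and 66.5 for GFP OE and 89.8 and 87 for THOC5 OE. Its peaks were spread: no place was in more than 5 lists, with the widest shared in exon 15 of 19 (chr5:28394138-28394852) and at intron 15 and exon 16 (chr5:28407926-28408664). Intron 7 of 18 was a place of 3 unmodified lists (those of Ctrl and Pi), and intron 8 of 18 of 3 vector lists. Rbm28, a nucleolar protein of ribosome and spliceosome assembly, was at percentiles 68.5 and 77.6 for Ctrl, 80.1 and 72.7 for Pi, 81.5 and 88.4 for GFP OE and 86.8 and 89.7 for THOC5 OE. All 4 vector lists lie above all 4 unmodified lists for Rbm28. The place shared by 7 lists was the 3' UTR in exon 19 of 19, chr6:29124049-29124640. A place in intron 15 of 18 was in GFP OE replicate 1, where it was the only Rbm28 peak and gave the 81.5 above, and in both THOC5 OE lists (80.1 and 81.8).

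Rbm5, a regulator of alternative splicing, was found in each Ctrl list (93.3 and 94.3), Pi replicate 2 (94.8) and both THOC5 OE lists (95.8 and 95.5), and in no GFP OE list. The place common to Ctrl, Pi replicate 2 and THOC5 OE replicate 1 was chr9:107743886-107744443. It was annotated as exon 21 of 25 of 1 transcript in THOC5 OE replicate 1, and as intron 20 of 23 of another in the other lists. A place at the end of the gene, chr9:107740484-107741034, was in both THOC5 OE lists and no other. Rbm15, an adaptor of the m6A writer, was bound in 6 lists, at 90.5 in Ctrl replicate 1, 89.8 and 90 in Pi, 93.1 in GFP OE replicate 1, and 87 and 69.6 in THOC5 OE. In 5 of them the peak was in the first of its 2 exons, and in 4 of these at the same place, chr3:107330991-107331754. Rbm25, a partner of the U1 particle, and Rbm39, a relative of the U2 auxiliary factor, were bound in 4 and 3 lists, each at a single place in an intron and at percentiles 94.5 to 95.7 and 92.3 to 96.6. Rbm20, which controls the splicing of titin in heart, and Rbm6, the neighbour of Rbm5, were bound in 3 vector lists and no unmodified list. The peaks of Rbm20 were weak, with a best percentile of 4.84 to 13.5, and those of Rbm6 reached 70.7 to 74.7. Rbm27, a relative of Rbm26, was bound in 6 lists with best percentiles of 9.72 to 53.2. Rbm19, which acts in ribosome assembly, was bound in 5 lists at 3.34 to 43.7, with a place in intron 12 of 23 in Ctrl replicate 2 and Pi replicate 2 and one at introns 22 and 23 in 3 vector lists. These 2 unmodified lists also held weaker peaks towards the 3' end, in exon 24 of Ctrl replicate 2 (9.85) and in intron 17 (8.86) and the 3' UTR (1.5) of Pi replicate 2.

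The hnRNP genes, whose proteins coat new transcripts, had the fewest peaks of the families, 8. Of the 22 genes, 6 were bound (27.3%, where 18% of all protein-coding genes were). Hnrnpa0, Hnrnpa1 and the pseudogene Hnrnpa1l2-ps were among the 16 without a peak. In 5 of the 6 the gene was bound in 1 list: Hnrnpu, a nuclear scaffold protein, in Ctrl replicate 2 (97.6, exon 1 of 14), Hnrnpul2 in Ctrl replicate 1 (80.8), Hnrnpul1 in Ctrl replicate 1 (63.4), and Hnrnpm (74.2) and Hnrnpll (41.7) in Pi replicate 1. Hnrnpr was bound in both Ctrl lists at low percentiles (7.38 and 16.1) and in THOC5 OE replicate 1 (28.9), each time at intron 2 of 9, chr4:136316519-136317008. No hnRNP gene was bound in either GFP OE list, where 6.37% and 5.52% of all protein-coding genes were. With 22 genes, this absence is not read as particular to the family. The genes of this family are short, with a median span of 11740 bp against 20010 bp for all 156, pseudogenes and noncoding genes included.

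Of the 20 genes of the spliceosome core, 10 were bound with 58 peaks, and Prpf19, Prpf31 and Prpf38a were among the 10 without one. Sf3b1, which holds the branch point in the U2 particle, reached the highest percentile of any of these genes, with 97.1 and 98.1 for Ctrl, 98.1 and 98 for Pi, 98.1 and 98.7 for GFP OE and 99.1 and 99.4 for THOC5 OE. Both THOC5 OE values were above the other 6. The peak of 7 lists lay in the last intron, 24 of 24, at chr1:54987381-54987973. Exon 23 of 25 (chr1:54990258-54990716) held a further place in both Ctrl lists and Pi replicate 2, at percentiles 96.7 to 98.1, and in no vector list. Intron 6 held one in both Ctrl lists only.

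Prpf4b, a kinase of the tri-snRNP, was at percentiles 97.5 and 98.4 for Ctrl, 98 and 98.1 for Pi, 98.2 and 98.4 for GFP OE and 98.4 and 98.5 for THOC5 OE. Its place in exon 2 of 15, chr13:34883464-34884164, was in all 8 lists. A second place in intron 1 of 14, chr13:34875588-34876155, was in the 4 vector lists, at percentiles from 50.1, and in no unmodified list.

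Prpf39, of the U1 particle, was bound in 7 lists at percentiles 76.2 to 91, missing in GFP OE replicate 1, and its most shared place was intron 9 of 13 (chr12:65055716-65056293, 5 lists). Prpf6, which bridges the particles of the tri-snRNP, was bound in 7 lists at 30.9 to 58, missing in Ctrl replicate 2. Its places in introns 7 and 8 of 20 lie side by side and were each in 3 lists. Prpf3, of the U4/U6 particle, was bound in both Pi lists and no other, at percentiles 18.2 and 31.6, with the shared place in intron 7 of 15 at chr3:95844399-95844991. Snrnp200, the helicase that unwinds U4 from U6, was bound in both Ctrl lists (64.7 and 74.9) at different places, intron 11 and exon 41. A peak at its start, named for the promoter of 1810024B03Rik, was in 7 lists at percentiles 47.1 to 73.9.

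Of the 36 Ddx genes, 17 were bound with 69 peaks and none in all 8 lists. Ddx19a, Ddx19b and Ddx21 were among the 19 without a peak. Ddx42, which binds the SF3B complex, was bound in 1 list of each condition, at 68.6 for Ctrl, 75.6 for Pi, 70.4 for GFP OE and 63.9 for THOC5 OE, each time in intron 2 of 16 (chr11:106224217-106224755). Ddx46, which acts when U2 joins the branch point, was found in each Ctrl list (41.2 and 65), Pi replicate 2 (59.2) and GFP OE replicate 1 (69.8), with a shared place in intron 17 of 22. Ddx17, a helicase of splicing and transcription, was bound in the 2 Ctrl lists and Pi replicate 1, with a place in intron 1 of 12 (chr15:79545831-79546384) at percentiles 92.3, 95 and 94.3 and in no vector list. Ctrl replicate 1 had a further peak in intron 6 at 98.4.

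Ddx60, an interferon-induced helicase of the antiviral response, had the most uneven peaks. It held 0 and 0 peaks for Ctrl, 1 and 0 for Pi, 10 and 3 for GFP OE and 5 and 6 for THOC5 OE, so that 24 of its 25 peaks lay in vector lists. The groups do not overlap: each vector list held at least 3 peaks and each unmodified list at most 1. These peaks were of middle or low strength, with a best percentile of 31.6 to 56 in the vector lists and 1.28 in Pi replicate 1. They were scattered over 16 places along the gene, of which 1, in intron 31 of 37 (chr8:62017257-62017795), was in all 4 vector lists. Of the other sensors of viral RNA, Ddx58 was bound in 1 list (Pi replicate 1, percentile 12), Dhx58 in none, and Ifih1, which is no member, in 4 lists (12 to 48.6).

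Of the 17 genes of the Dhx family with Helz, 14 were bound with 72 peaks, the highest share of the families (82.4%), and these genes are also the longest, with a median span of 34400 bp. Dhx29, Dhx58 and Dhx8 had no counted peak. Helz, a helicase with a zinc finger, was at percentiles 59 and 71.9 for Ctrl, 72.8 and 67.1 for Pi, 71 and 69.6 for GFP OE and 80.5 and 79.6 for THOC5 OE. Both THOC5 OE values were above the other 6. The leading place was intron 10 of 32, chr11:107602417-107602970, in all 8 lists with centres within 21 bp.

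Dhx9, a nuclear helicase that unwinds RNA and RNA-DNA hybrids, was bound in 5 lists at 71.4 in Ctrl replicate 1, 85.6 in Pi replicate 2, 78.4 and 72.1 in GFP OE, and 85.4 in THOC5 OE replicate 1. Intron 8 of 27, chr1:153472609-153473102, was its place in 1 list of each condition. Dhx57 was bound in both lists of Ctrl (35.7 and 64.2), GFP OE (86 and 85.5) and THOC5 OE (80.1 and 77.5) and in no Pi list. Its shared places were exon 5 of 24 in both GFP OE lists (chr17:80274766-80275366) and the 3' UTR in both THOC5 OE lists and Ctrl replicate 2 (chr17:80238289-80238833). The peak of Ctrl replicate 1 was in exon 16.

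Dhx36, which resolves G-quadruplexes, was bound in both Ctrl lists (2.77 and 27.9), GFP OE replicate 2 (47.2) and both THOC5 OE lists (50.7 and 46.7), with its shared places at intron 7 of 24 in both Ctrl lists (2.77 and 26.9) and at exon 11 of 25 (chr3:62488307-62488857) in the 3 vector lists. The 27.9 of Ctrl replicate 2 was in intron 4, and THOC5 OE replicate 1 had a further peak in intron 1 (19). Dhx34, of nonsense-mediated decay, was bound in both Ctrl lists (41.2 and 54.2), GFP OE replicate 2 (53.8) and THOC5 OE replicate 2 (59.3), each time in exon 2 of 17. Dhx30, of the mitochondrial ribosome, was bound in 5 lists at 53.5 to 70.9, all at intron 8 of 22 (chr9:110092470-110092944). Dhx15, which takes the spliceosome apart, had a place in intron 8 of 13 in both Ctrl lists and Pi replicate 2. Of the spliceosomal Dhx16 and Dhx38, the former was bound in Pi replicate 2 (86.2) and the latter in Ctrl replicate 2 (55.3).

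**Figure D3:**
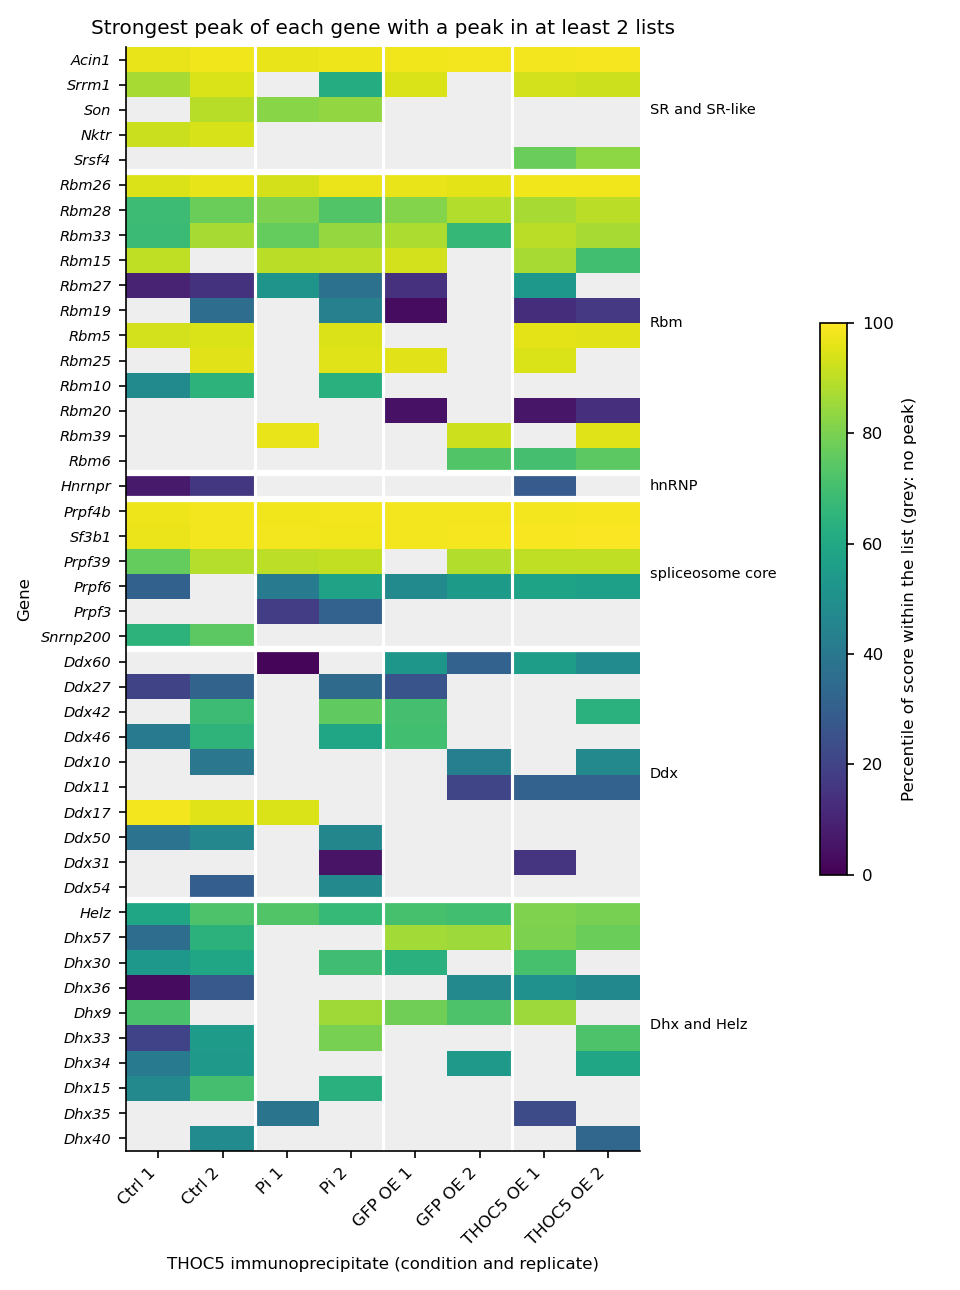
Percentile of the strongest peak within its list (colour, 0 to 100; grey, no peak) for each splicing factor and RNA helicase gene bound in at least 2 lists (rows, by family) in the 8 immunoprecipitates (columns). Acin1, Rbm26, Prpf4b and Sf3b1 stay above 93 in every list, Ddx60 is filled in all 4 GFP OE and THOC5 OE lists, and Nktr, Srsf4, Prpf3 and Snrnp200 each fill both lists of 1 condition alone.

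To ask whether the lists hold the same sites, peaks of a gene that overlapped by at least 1 base were joined into places. The 352 peaks formed 167 places: 89 were in 1 list, 78 in at least 2 and 24 in at least 4. The share in at least 4 lists was 14.4%, below the 20.7% of all 11927 places in genes. The 4 places in all 8 lists were those of Acin1, Prpf4b, Rbm26 and Helz given above (2.4%, where 2.64% of all places were). A place was in all 4 conditions 16 times. For that count, and for places in 1 list or in at least 2, the share over all places is not given here. Within the 24 places of at least 4 lists, the peak centres spanned 14.5 to 560 bp with a median of 77 bp. Peaks that overlap have centres within about 1 peak width, so the joining rule itself limits this range.

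**Figure D4:**
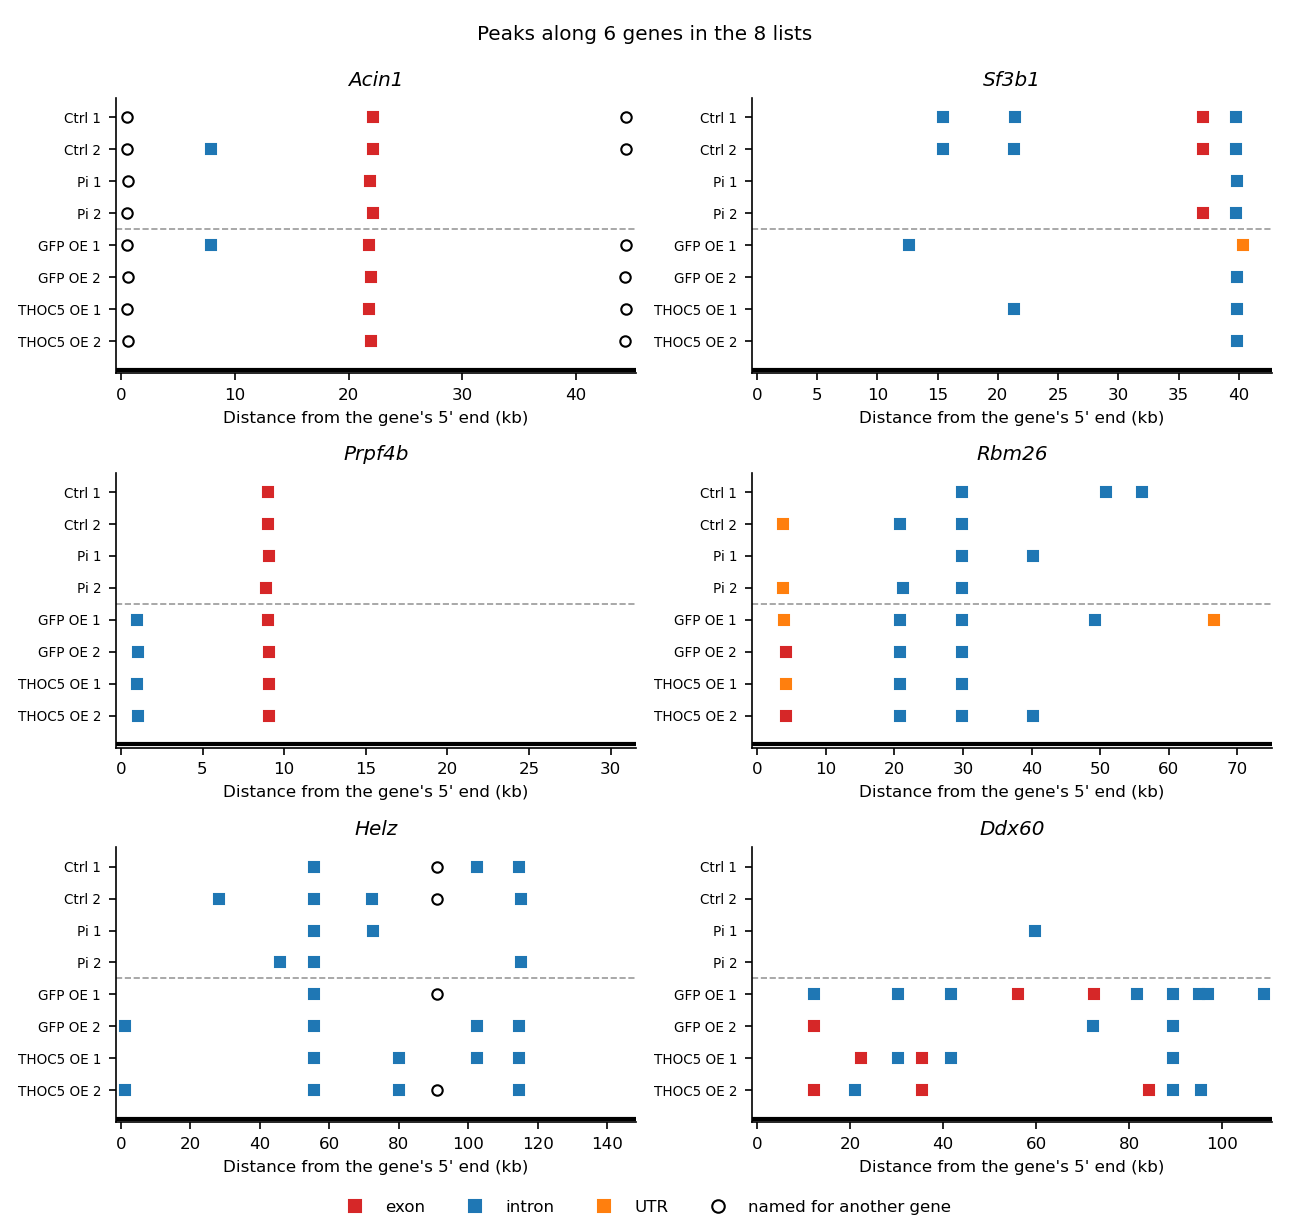
Peaks along 6 genes: the x axis is the distance from the 5' end of the gene (kb), each row is a list, and squares mark peaks counted to the gene by class (exon, intron, UTR), with open circles for peaks named for another gene. Acin1, Prpf4b, Rbm26 and Helz each have 1 column of squares through all 8 rows, and Ddx60 has 24 of its 25 squares below the dashed line, in GFP OE and THOC5 OE.

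By class, 235 of the 352 peaks lay in introns, 82 in exons, 26 in 3' UTRs, 5 in 5' UTRs, 3 in non-coding exons and 1 at a transcript end. Introns thus held 66.8% of the peaks, against 58.5% of all peaks in genes. The members' share in introns was 72.3% and 68.4% for Ctrl, 70% and 73.3% for Pi, 67.4% and 63% for GFP OE and 61.5% and 58.8% for THOC5 OE. All 4 vector lists were below all 4 unmodified lists. The share over all peaks in genes moved the other way, from 53.6% ± 0.957 for Ctrl and 57.6% ± 1.7 for Pi to 60.7% ± 4.43 for GFP OE and 62.1% ± 0.71 for THOC5 OE (SD, n = 2 lists). The members thus exceeded all genes by 19.4 and 14.2 percentage points in Ctrl and 11.2 and 17 in Pi. In GFP OE the difference was 9.87 and -0.879 points, and in THOC5 OE -0.0156 and -3.73. Without Ddx60 the members' share had a mean of 70.4% for Ctrl, 71.1% for Pi, 63.1% for GFP OE and 60.9% for THOC5 OE. These shares over the members are given with no test.

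**Figure D5:**
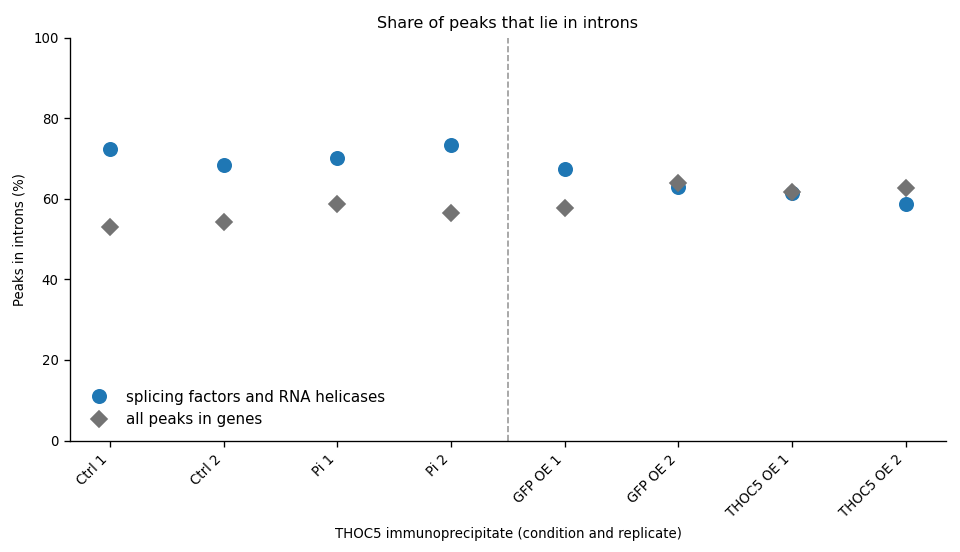
Share of peaks in introns (y axis, %) in each immunoprecipitate (x axis) for splicing factors and RNA helicases (blue circles) and for all peaks in genes (grey diamonds); the dashed line parts unmodified from vector lists. Circles lie above diamonds in both Ctrl lists, both Pi lists and GFP OE replicate 1, and at or below them in the other 3 lists.

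On annotated repeats lay 37 of the 352 peaks (10.5%, against 7.88% of all peaks in genes). Of the 37, 29 were on short interspersed elements (SINE), 3 on DNA transposons, 3 on low-complexity sequence and 2 on LTR elements.

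Pi and Ctrl differ in the medium, and the study set them side by side to see how THOC5 binding changes in the osteogenic state. A gene was set apart if the 2 lists of one condition held it and the 2 lists of the other did not. Of the 59 members bound in Ctrl or Pi, 1 was set apart in Pi, Prpf3 (1.69%, where 3.25% of all 3384 genes bound in these lists were). Set apart in Ctrl were 6: Dhx34, Dhx36, Dhx57, Hnrnpr, Nktr and Snrnp200 (10.2%, where 3.63% of all genes were). Snrnp200 depends on the naming of peaks: both Pi lists held the peak at its start that was named for 1810024B03Rik (58 and 73.9), and with peaks of any class inside a gene counted, the number set apart in Ctrl was 5. Without Pi replicate 2 the counts became 12 in Pi and 15 in Ctrl, and without Ctrl replicate 1 they were 3 and 12. Without Pi replicate 1 the count in Pi was 6, without Ctrl replicate 2 it was 2, and among peaks at or above the median score of each list the counts were 0 and 2. With 2 lists against 2 the smallest exact two-sided p is 1/3, so these are descriptions of the lists.

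Overexpressed THOC5 was compared with GFP in the same osteogenic medium. Of 39 members bound in these 4 lists, 2 were set apart in THOC5 OE, Rbm5 and Srsf4 (5.13%, where 6.34% of all 2509 genes were), and 0 in GFP OE (where 1.2% were). Rbm5 was also bound in 3 unmodified lists. Neither Rbm5 nor Srsf4 was set apart when a peak was given to the authors' nearest gene, where the count was 0. The count in THOC5 OE was 6 without any 1 of the 4 lists, and that in GFP OE was 3 without GFP OE replicate 2 and 1 without THOC5 OE replicate 1.

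GFP OE was compared with Pi, which differ in the vector and share the medium. Of 52 members, 1 was set apart in GFP OE, Dhx57 (1.92%, where 3.65% of all 3065 genes were), and 2 in Pi, Prpf3 and Son (3.85%, where 6.49% were). Son depends on the naming of peaks: with any peak of a counted class inside the gene included, the GFP OE replicate 1 peak named for Donson enters and the count in Pi was 1. The count in GFP OE was 6 without GFP OE replicate 1, 3 without GFP OE replicate 2 and 2 without either Pi list, and that in Pi was 13 without Pi replicate 1, 12 without Pi replicate 2 and 4 without GFP OE replicate 1. The comparisons of Pi with Ctrl and of GFP OE with Pi share the Pi lists, as those of THOC5 OE and Pi with GFP OE share the GFP OE lists. The absence of Dhx57 and the presence of Prpf3 in Pi therefore enter both comparisons.

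The 4 vector lists were then compared with the 4 unmodified lists in the number of peaks per gene, by a two-sided exact permutation test over the 70 splits of the 8 lists, with Benjamini-Hochberg adjustment over the 4051 bound genes. The smallest p this allows is 0.0286. The contrast joins 2 media on the unmodified side, so vector and medium are partly mixed. The vector side joins cells overexpressing GFP and cells overexpressing THOC5, the immunoprecipitated protein, so THOC5 overexpression is partly mixed in as well. Ddx60 had 6 ± 2.94 peaks per vector list and 0.25 ± 0.5 per unmodified list (SD, n = 4 each; exact permutation p 0.0286, adjusted p 1). Prpf4b had 2 ± 0 and 1 ± 0 (exact permutation p 0.0286, adjusted p 1). Both p are the smallest the design can give, and neither passed the adjustment. From that floor, a gene can pass the adjustment over 4051 genes only if a large part of them reach it too. After adjustment 0 of the 4051 genes passed at 0.05, while 108 had an unadjusted p under 0.05. The 0 thus does not tell whether any single gene differed. These 108 were 74 with more peaks in vector lists (1.83%) and 34 with more in unmodified lists (0.839%). Of the 67 bound members, 2 were among the former (2.99%) and 0 among the latter. The median difference was -0.25 peaks per list for the members and for all bound genes. Among peaks at or above the median score of each list, Ddx60 differed by 0.75 peaks per list (exact permutation p 0.429). The second peak of Prpf4b was in an intron, and with introns left out the difference was 0.

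No member was bound in all 4 vector lists and no unmodified list, where 1.09% of all bound genes were, and none in all 4 unmodified lists and no vector list, where 0.691% were. By place, 2 of 167 were in all 4 vector lists and no unmodified list, those of Ddx60 and Prpf4b given above (1.2%, where 0.822% of all places were). None was in all 4 unmodified lists and no vector list, where 0.285% were. With 3 or 4 lists of one side and none of the other, 11 places in 9 genes were on the vector side: in Ddx11, Ddx60, Dhx36, Prpf4b, Rbm6, Rbm19, Rbm20, Rbm28 and Rbm33 (6.59%, where 3.57% of all places were). On the unmodified side were 8 places in 8 genes: Ddx17, Ddx50, Dhx15, Prpf39, Rbm10, Rbm33, Sf3b1 and Son (4.79%, where 1.8% were). Rbm33 had a place on each side, and for Sf3b1, Prpf39 and Rbm28 the gene was bound on both sides while single places were not.

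Genes that work with these factors were read from 3 further lists. Bound were 33.3% of the other splicing factors, 63.6% of the kinases and 66.7% of the other helicases, where 18% of all protein-coding genes were. These shares were not set side by side by span. Of all bound genes, 9.87% were in all 8 lists. Of 57 other splicing factors, 19 were bound and 1, Scaf8, which ties splicing to transcription, in all 8 lists (93.3 to 95.8). Luc7l2, of the U1 particle, was bound in 7 lists (71.2 to 89.1), Cdc5l in 6 (2.78 to 29.8), and Sfpq, a paraspeckle protein, in 5 (97.7 to 98.2). Snrnp70, the U1 protein, was bound in 5 lists (74.1 to 92.9) and Scaf4 in 5 (53.1 to 67.7). Of 11 kinases that phosphorylate splicing factors, 7 were bound, with Cdk12 (76.1 to 96.4) and Srpk2 (42.8 to 63) in all 8 lists and Clk1 (90.3 to 94.9) and Cdk11b (61.1 to 79.1) in 6. Cdk13 was bound in 3 lists (24.9 to 83.3), and Clk4 in Pi alone, in 1 list (73.7). Of 21 other RNA helicases, 14 were bound, with Ascc3 (78.8 to 93.8), Dicer1, which cuts microRNA precursors (75.9 to 87.3), and Ythdc2, a reader of m6A (2.77 to 41.3), in all 8 lists. Helz2, a relative of Helz, was bound in 7 (91.5 to 98.6), and so was Dqx1 (10.7 to 56.3). Zgrf1 was bound in 6 (2.79 to 39.5). Aqr, the helicase that binds introns, is in both the list of splicing factors and that of helicases.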

How the data were processed

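The 8 deposited lists, 1 per THOC5 immunoprecipitate, hold peaks that the authors annotated on mm10 with HOMER's annotatePeaks.pl, per the file headers. The submitters' processing notes name FastQC, Bowtie2, MACS2 and SAMtools and give no role or version; which caller made the peaks, with which settings, and whether inputs were used, the sources used here do not say. The only value per peak used is the score deposited by the authors, read as a percentile within its list. A list was joined to its sample by condition and number in the file header.

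The gene of a peak is that of the transcript in its annotation. Of 28998 peaks, 28614 had a transcript, and for 28582 of these peaks it was found in RefSeq (GRCm38.p6). Promoter and intergenic peaks were not counted. Python 3.11.15, numpy 2.4.6, pandas 2.3.3 and matplotlib 3.10.9 were used, and the permutation test was tested on simulated data. The members and lists were chosen with earlier results of these data known. Genes named are those bound in all 8 lists, those set apart in a comparison, the 3 of each family with the best median percentile (0 where no peak), up to 3 examples without a peak, and up to 6 of each further list; Ddx17, Rbm6, Rbm19, Rbm20, Rbm25, Rbm27, Rbm39, Prpf6, Dhx15, Dhx30, Dhx16, Dhx38, Ddx10, Ddx58, Dhx58, Hnrnpul1, Hnrnpll, Ifih1, Aqr and the genes listed by place were named after their values were seen. Alternatives were peaks at or above the median score, lists cut to 2572 peaks, introns left out, the authors' nearest gene, stricter overlap (50%) or centres within 250 bases, leaving out each list, a replicate block and, added later, any peak inside the gene (of a counted class, or of any class) and a crossed block. Peak sequences were not read, since no genome was used here.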

Additional observations from a re-analysis of the deposited data

Results flagged for a closer look

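Some peaks inside members or at their promoters were not counted, as they were of another class or named for another gene or none. Those given here were absent from both Ctrl lists; others, such as the ones beside Mir6948 and Mir6932, were present there. Prpf40b, a partner of the U1 particle with no counted peak, held a peak named for the end of Fmnl3 in 4 lists (Pi replicate 1, GFP OE replicate 2 and both THOC5 OE lists; percentiles 89.1 to 93.3; chr15:99315965-99316867). In 1 list each there were promoter peaks of Dhx29 (32.5), Dhx58 (88.5) and Rbm48 (9.68), all in THOC5 OE replicate 1, and of Rbm33 (38.8) in GFP OE replicate 1. Also in 1 list each were peaks inside Prpf31 named for Tfpt (13.1), inside Srsf4 named for Gm12992 (82.3) and inside Rbm15 named for no gene (70.1), all in Pi replicate 2. In GFP OE, 1 list each held peaks inside Prpf39 named for Fkbp3 (89.2), inside Son named for Donson (98.4) and inside Rbm27 named for Gm4013 (23), and 1 list of THOC5 OE a peak inside Rbm10 named for Ndufb11 (23.7). No strand is given, so these peaks cannot be assigned to either transcript.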

How the results depend on the processing

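Of 290 values under the alternatives, 206 were called the same, 74 moved and 10 lost their call (those of Ddx60 and Prpf4b). Called the same were counts of bound members within the SD of the condition and other counts within a set fold of the reported one. For THOC5 OE that SD was 0, so any change in its count was called moved, however small. For Ddx60 and Prpf4b the p had to stay on its side of 0.05. Many of the 206 could not change, as where the list left out was not part of the count, so 206 is no measure of robustness. With peaks at or above the median score, members bound per list were 22 for Ctrl, 19 for Pi, 15 for GFP OE and 20.5 for THOC5 OE; those set apart were 0 in Pi and 2 in Ctrl, and 1 in Pi against GFP OE; 62 genes and 1 member had an unadjusted p under 0.05, and places were 87. With lists cut to 2572 peaks, Ctrl had 29 and THOC5 OE 22, with 0 set apart in Pi, 2 in GFP OE against Pi, and 66 genes under 0.05. With introns left out, Ctrl had 13.5, Pi 10.5, GFP OE 10.5 and THOC5 OE 16; 2 members were in all lists; 0 were set apart in Pi against Ctrl, 2 in GFP OE against Pi and 0 in the other direction; 43 genes and 1 member were under 0.05; places were 60, with 2 in every list and 6 in all 4 conditions. With the authors' nearest gene, THOC5 OE had 26.5, with 2 set apart in Pi against Ctrl, 0 in THOC5 OE and 0 in GFP OE against Pi. With any peak of a counted class inside the gene, chosen after seeing the data, THOC5 OE had 29, and 1 was set apart in Pi against GFP OE. With peaks of any class inside the gene, also chosen after seeing the data, THOC5 OE had 31, and that count was 1 too.

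Leaving out 1 list gave 31 to 36 for Ctrl, 25 to 32 for Pi, 18 to 22 for GFP OE and 28 to 28 for THOC5 OE. Set apart were then 1 to 12 for Pi and 6 to 15 for Ctrl; 2 to 6 for THOC5 OE and 0 to 3 for GFP OE; and 1 to 6 for GFP OE and 2 to 13 for Pi. Genes with an unadjusted p under 0.05 were 102 to 174 (174 without GFP OE replicate 2) and members 1 to 4 (1 without Ctrl replicate 2, 4 without Pi replicate 1 or GFP OE replicate 1). Places were 151 to 167, in every list 4 to 6, and in all 4 conditions 7 to 16 (7 without Pi replicate 2, 10 without Ctrl replicate 2 or GFP OE replicate 1). Genes in all lists were 7 to 8. The difference of Ddx60 was 4.42 to 6.75, with an exact permutation p of 0.0571 without any 1 unmodified list.

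Replicate numbers were checked as pairs: the difference of replicate 1 and 2 correlated over 4051 genes at 0.366 between Ctrl and Pi and 0.242 between GFP OE and THOC5 OE, but at -0.405, -0.234, -0.393 and -0.225 between an unmodified and a vector condition. The labels do not say what a number stands for, and the signs differ, so the numbers were not taken as pairs; whether lists share a batch across the numbers was not tested. With the replicate block, a member is counted in each number in which 1 condition holds it and the other does not: 22 for Pi and 32 for Ctrl, 21 for THOC5 OE and 5 for GFP OE, and 19 for GFP OE and 36 for Pi, a different quantity from the count of genes set apart. The blocked vector test had 0 genes and 0 members under 0.05 (Ddx60 and Prpf4b: exact permutation p 0.0556, the smallest that the block allows). Crossed numbers between unmodified and vector lists, added after the correlations were seen, gave 11 in GFP OE and 28 in Pi, and in the vector test again 0 genes and 0 members under 0.05. No p under 0.05 was possible in either block, so these 0 counts were fixed in advance. Depth is unknown, so a missing peak may lie under the reach of a list. The cause of each of these changes was not tested.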

Other observations

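In all, 40 peaks inside 13 members carried the name of another gene or none, and 4 peaks lay at members' promoters. Besides those above, Dhx57 held a peak named for Morn2 in 2 lists (percentiles 3.73 and 34.7) and Rbm19 one named for Gm10390 in 2 lists (9.72 and 34.4).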
